A study of Homo sapiens with 6 samples.

Results

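The ATF4 stress-response genes described here are 10 human genes: ATF4, ATF3, DDIT3, DDIT4, TRIB3, CHAC1, ASNS, SESN2, PSAT1 and PHGDH. They were chosen by name, as the loci of the deposited table whose gene name field holds one of these symbols, and each symbol was found at 1 locus of 62828. Their RNA was measured in K562, a human cell line grown from a chronic myeloid leukemia, after siRNA to HNRNPU (300 nM) and after control oligos. HNRNPU is a nuclear protein that binds RNA and chromatin, and the series asks whether it sets where long noncoding RNAs lie in the cell. Each condition was sequenced as 3 preparations, and each of the 6 groups holds 1 library: HNRNPU siRNA whole-cell, nuclear and cytosolic RNA, and control oligo whole-cell, nuclear and cytosolic RNA. The sources used here do not say whether 1 culture supplied all preparations of a condition. In such bulk RNA, fewer cells with a transcript and less of it per cell cannot be told apart. Because no group has a replicate library, no difference below has a replicate check, and no test between conditions was made.

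ATF4 is the main transcription factor of the integrated stress response. Kinases that sense amino acid shortage, misfolded protein in the endoplasmic reticulum, heme shortage or double-stranded RNA phosphorylate the initiation factor eIF2. This lowers translation in general, while upstream open reading frames let the ATF4 mRNA be translated more. ATF4 then switches on other transcription factors, feedback inhibitors, brakes on the growth kinase mTORC1, and enzymes and transporters that supply amino acids. Much of the control of ATF4 itself is thus on translation, which RNA levels do not measure.

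Levels are given in FPKM, fragments per kilobase of transcript scaled to library size, which allows genes to be compared per length. The difference between conditions is the log2 ratio, the log2(FPKM + 0.1) after HNRNPU siRNA minus that with control oligos, and a fold of 1.5 was used as the size rule. Set against this rule, the 10 genes were nearly level between conditions. In whole-cell RNA 0 of 10 passed the rule upward and 0 downward. Of the 12824 loci that averaged 1 FPKM or more, called all loci below, 4.76% passed it upward and 3.87% downward. All 10 genes averaged 5 FPKM or more, and of the 7984 protein-coding loci at that level, called abundant below, 1.85% and 0.902% passed. In nuclear RNA 1 was higher (ATF3) and 0 were lower, against 3.85% and 4.73% of all loci and 1.53% and 1.23% of abundant ones. In cytosolic RNA 0 were higher and 1 was lower (CHAC1), against 6.4% and 5.9% of all loci and 1.63% and 1.29% of abundant ones. Counts of 0 and 1 among 10 genes are too few to set against these shares. Their median log2 ratio was -0.01 for whole-cell, 0.02 for nuclear and 0.03 for cytosolic RNA, where the medians of all loci were 0.06, 0.03 and 0.03. Of the 30 ratios, 27 lay within 0.3 log2 units of 0. Among abundant protein-coding loci 80.7%, 79.8% and 82.5% lay within that range in whole-cell, nuclear and cytosolic RNA.

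The targeted gene was lower in each siRNA library, and fraction markers lay on the side of their label. The HNRNPU locus, which also carries the name HNRNPU-AS1, kept 43.0% of its control level in the whole-cell library, 39.0% in the nuclear one and 22.1% in the cytosolic one. MALAT1, a nuclear lncRNA, had 22.2 times as much nuclear as cytosolic FPKM after HNRNPU siRNA and 14.1 times as much with control oligos. NEAT1, another nuclear lncRNA, had 4.59 times as much after HNRNPU siRNA and 4.90 times as much with control oligos. RPLP0, a ribosomal protein mRNA, had ratios of 0.190 after HNRNPU siRNA and 0.185 with control oligos. All 7 of the erythroid K562 markers had a mean of at least 1 FPKM, and so had 5 of 8 markers of T cells, B cells, fibroblasts and epithelia, whereas MS4A1 of B cells was listed at 0 in all 6 libraries. Depth was read from the steps that single fragments make in low values. At 1 FPKM a kilobase of transcript held about 19.3, 40.3 and 15.2 fragments in the HNRNPU siRNA whole-cell, nuclear and cytosolic libraries, and 23.8, 19.9 and 13.8 in the control ones.

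**Figure D1:**
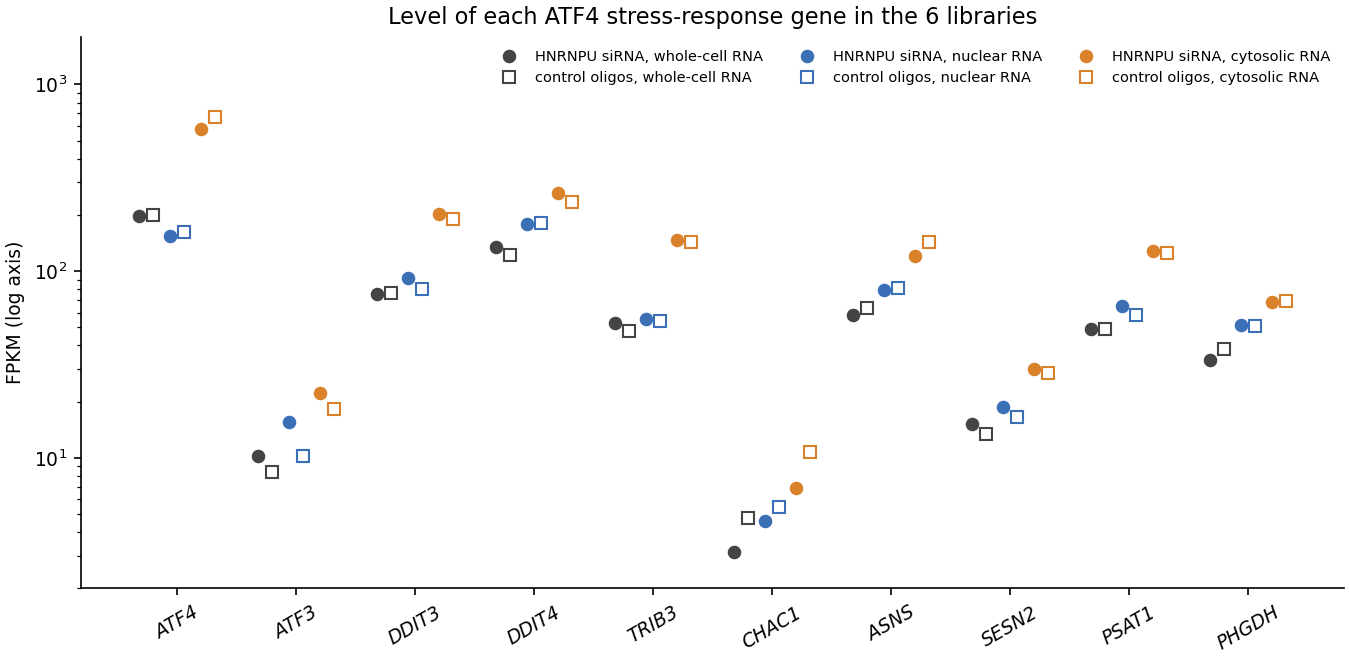
FPKM (log axis) of each of the 10 genes in the 6 libraries, with HNRNPU siRNA as filled circles and control oligos as open squares, coloured by preparation. Within a gene the paired symbols lie close together, except for nuclear ATF3 (15.6 FPKM after siRNA, 10.2 in the control), whole-cell CHAC1 (3.15 FPKM after siRNA, 4.76 in the control) and cytosolic CHAC1 (6.90 FPKM after siRNA, 10.8 in the control), and every cytosolic symbol is above the nuclear and whole-cell ones of its gene.

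ATF4 was the most abundant of the 10 in whole-cell and cytosolic RNA. Its locus lies on chromosome 22, 39915699 to 39918691 on hg19. It had 197 FPKM after HNRNPU siRNA and 199 FPKM with control oligos in whole-cell RNA, which is rank 153 after siRNA and rank 144 in the control among 10279 protein-coding loci. Its nuclear values were 154 FPKM after HNRNPU siRNA and 163 FPKM in the control, and its cytosolic values 578 FPKM after HNRNPU siRNA and 670 FPKM in the control. The log2 ratios were -0.02, -0.08 and -0.21, so ATF4 was slightly lower in each preparation. The 95% counting interval of the cytosolic ratio was -0.25 to -0.18, which excludes 0 but is far inside 1.5-fold. Such an interval rests on estimated fragments and covers counting error only, not the spread between cultures. The table also holds 12 pseudogenes of ATF4, ASNS and PSAT1, which reached at most 0.676 FPKM in any library.

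ATF3 and DDIT3 are transcription factors of the same basic leucine zipper class that act downstream of ATF4, and DDIT3, also called CHOP, is linked to cell death under lasting stress. ATF3 (chromosome 1, 212738675 to 212794119 on hg19) had the 1 nuclear ratio past 1.5-fold. It had 10.3 FPKM after HNRNPU siRNA and 8.39 FPKM in the control in whole-cell RNA. The nuclear values were 15.6 FPKM after HNRNPU siRNA and 10.2 FPKM in the control, and the cytosolic ones 22.3 FPKM after siRNA and 18.3 FPKM in the control. Its log2 ratios were 0.29, 0.61 and 0.29. The counting interval ran from -0.01 to 0.59 for whole-cell RNA, from 0.37 to 0.85 for nuclear RNA and from 0.04 to 0.54 for cytosolic RNA. ATF3 stood higher in all 3 preparations, and in each it had the highest ratio of the 10. About 178 fragments in the HNRNPU siRNA library and 179 in the control library lay behind the whole-cell values. The nuclear ratio fell just short of 1.5-fold, at 0.57, with a pseudocount of 1 and with a common protein-coding median.

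DDIT3 (chromosome 12, 57910370 to 57914300 on hg19) was at rank 413 of the protein-coding loci after HNRNPU siRNA and rank 378 with control oligos in whole-cell RNA. Whole-cell RNA had 75.2 FPKM after HNRNPU siRNA and 76.9 FPKM in the control. Nuclear RNA had 92.1 FPKM after siRNA and 80.3 FPKM in the control, and cytosolic RNA 203 FPKM after siRNA and 189 FPKM in the control. The log2 ratios of -0.03, 0.20 and 0.10 do not share a sign. The DDIT3 locus shares 983 bases with MARS, the methionyl-tRNA synthetase gene on the opposite strand. Fragments of MARS could have been counted there, since the use of strand in counting is not given; MARS had 99.5 FPKM after HNRNPU siRNA and 95.3 FPKM in the control in whole-cell RNA.

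TRIB3 is a pseudokinase that binds AKT and restrains ATF4 in a feedback loop, and CHAC1 is an enzyme that degrades glutathione. TRIB3 (chromosome 20, 361260 to 378203 on hg19) had 52.9 FPKM after HNRNPU siRNA and 47.7 FPKM in the control in whole-cell RNA. Its nuclear values were 55.3 FPKM after siRNA and 54.0 FPKM in the control, and its cytosolic ones 147 FPKM after siRNA and 144 FPKM in the control. The counting intervals of both fraction ratios included 0, and the whole-cell ratio was 0.15 (0.04 to 0.26). The ratio in nuclear RNA, 0.03, turned below 0 when libraries were set to a common protein-coding median or quantile normalized.

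CHAC1 (chromosome 15, 41245159 to 41248710 on hg19) was the gene with the widest difference of the 10, and the one with the lowest level. It had 3.15 FPKM after HNRNPU siRNA and 4.76 FPKM in the control in whole-cell RNA, which is 66.2% of the control level. In nuclear RNA it had 4.62 FPKM after siRNA and 5.45 FPKM in the control (84.6%), and in cytosolic RNA 6.90 FPKM after siRNA and 10.8 FPKM in the control (64.2%). CHAC1 was thus lower in all 3 preparations, with log2 ratios of -0.58, -0.24 and -0.63. About 69.2 fragments after HNRNPU siRNA and 129 in the control lay behind the whole-cell values, and 119 after HNRNPU siRNA and 168 in the control behind the cytosolic ones. The counting interval ran from -1.002 to -0.16 for whole-cell RNA, from -0.56 to 0.08 for nuclear RNA and from -0.97 to -0.29 for cytosolic RNA. Its whole-cell ratio lay just inside the size rule of 0.58 and passed it with a pseudocount of 0.01 and under all 3 other scalings, whereas its cytosolic ratio no longer passed with a pseudocount of 1 (-0.57).

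**Figure D2:**
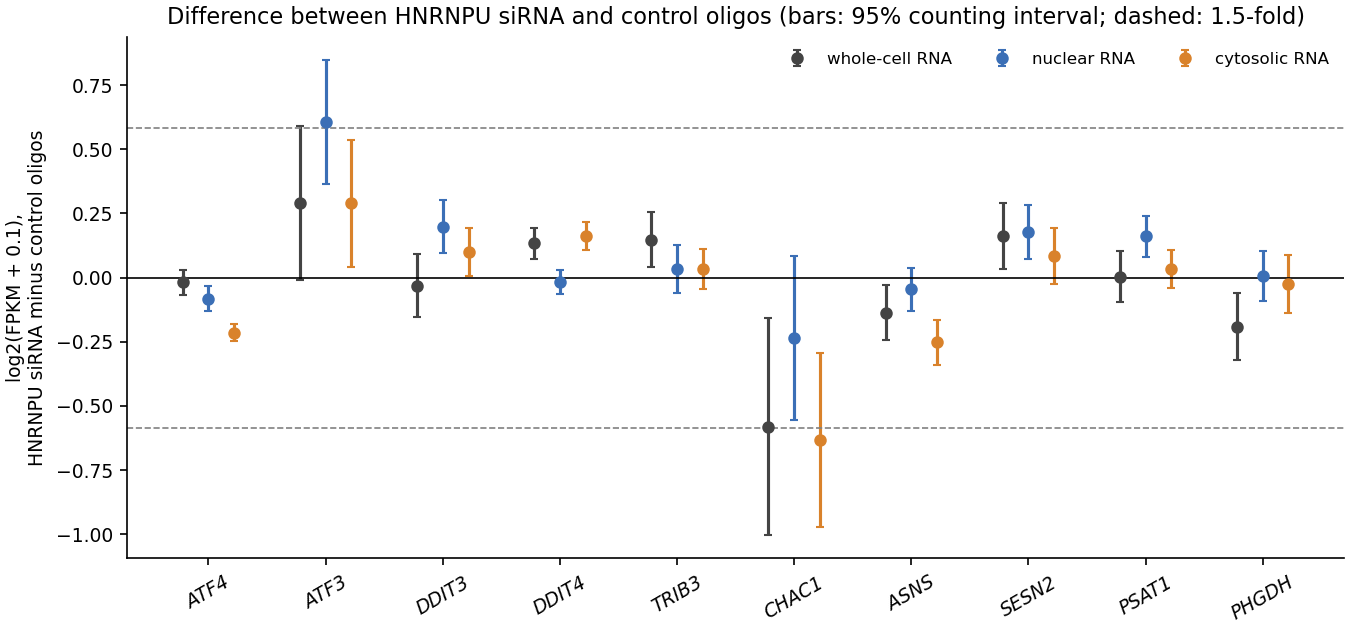
Log2 ratio of HNRNPU siRNA to control oligos for each gene in whole-cell, nuclear and cytosolic RNA, with bars for the 95% counting interval and dashed lines at 1.5-fold. ATF3 is above 0 and CHAC1 below 0 in every preparation, with the widest intervals, and the other 8 genes lie between -0.25 and 0.20.

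CHAC1 and ATF3, the genes at either end of the ratios, and ASNS, which was lower by less than 1.5-fold in each preparation, are the 3 of the 10 genes with a match to the C/EBP-ATF response element in their promoter window. ATF4 binds this kind of element as a dimer with C/EBP proteins. It was searched as TGATGNAA on both strands, so as TTNCATCA on the other strand, in windows from 250 bases before to 50 bases after each RefSeq start (GRCh38.p14). Windows were found for all 10 genes, from 1 to 3 a gene, and a gene counts if any of them holds the motif. Of all 27305 genes with a window, 4.46% hold the motif. The stretches around it are shown 5′ to 3′ on the strand of the gene, with the motif in capitals. They lie at chr15:40953222-40953309 (plus strand) for CHAC1, chr7:97872429-97872516 (minus strand) for ASNS and chr1:212565176-212565263 (plus strand) for ATF3.
CHAC1: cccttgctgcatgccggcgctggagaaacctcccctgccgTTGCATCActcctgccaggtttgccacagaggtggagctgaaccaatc
ASNS: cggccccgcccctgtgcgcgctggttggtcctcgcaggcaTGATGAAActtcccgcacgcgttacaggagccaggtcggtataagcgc
ATF3: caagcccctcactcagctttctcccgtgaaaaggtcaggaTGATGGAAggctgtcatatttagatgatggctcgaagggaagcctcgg
The motif spans 209 to 202 bases before the RefSeq start of the matching window in CHAC1 and 68 to 61 in ASNS. In ATF3 it spans 191 to 184 bases before such a start. Whether these starts are the ones used in K562 was not tested. Of these 3 genes, CHAC1 and ASNS were below and ATF3 above the control in all 3 preparations. A link between the motif and the ratio was not tested. The cyclic AMP response element TGACGTCA, which reads the same on both strands and shares no full match with the other motif, was in the windows of 0 of the 10 genes and of 2.25% of all genes. A missing match says only that these letters are not in the window.

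DDIT4 and SESN2 are brakes on mTORC1: DDIT4, also called REDD1, acts through the TSC complex, and SESN2 is a leucine sensor that acts through GATOR2. DDIT4 (chromosome 10, 74033677 to 74035794 on hg19) had 135 FPKM after HNRNPU siRNA and 123 FPKM in the control in whole-cell RNA. Nuclear RNA had 179 FPKM after siRNA and 182 FPKM in the control, which made DDIT4 the most abundant of the 10 in both nuclear libraries. Cytosolic RNA had 263 FPKM after siRNA and 236 FPKM in the control. Its log2 ratios were 0.13, -0.02 and 0.16, and the counting interval of the cytosolic ratio, 0.11 to 0.22, excludes 0. SESN2 (chromosome 1, 28586037 to 28609002 on hg19) had 15.1 FPKM after HNRNPU siRNA and 13.5 FPKM in the control in whole-cell RNA, 18.7 after siRNA against 16.5 in the control in nuclear RNA, and 30.04 after siRNA against 28.3 in the control in cytosolic RNA. SESN2 was slightly higher in all 3 preparations, at 112%, 113% and 106% of the control level.

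ASNS makes asparagine, and PHGDH and PSAT1 catalyse the first steps of serine synthesis from a glycolytic intermediate. ASNS (chromosome 7, 97481429 to 97501854 on hg19) had 58.1 FPKM after HNRNPU siRNA and 63.9 FPKM in the control in whole-cell RNA. Nuclear RNA held 78.8 FPKM after siRNA and 81.4 FPKM in the control, and cytosolic RNA 120 FPKM after siRNA and 144 FPKM in the control. ASNS was lower in all 3 preparations, with log2 ratios of -0.14, -0.05 and -0.25, and the nuclear interval included 0. PHGDH (chromosome 1, 120202420 to 120286838 on hg19) had 33.4 FPKM after HNRNPU siRNA and 38.1 FPKM in the control in whole-cell RNA, 51.4 after siRNA against 51.1 in the control in nuclear RNA, and 68.2 after siRNA against 69.5 in the control in cytosolic RNA. Only its whole-cell ratio, -0.19, had a counting interval that excluded 0 (-0.32 to -0.06). PSAT1 (chromosome 9, 80912058 to 80945009 on hg19) had 49.1 FPKM after HNRNPU siRNA and 48.9 FPKM in the control in whole-cell RNA, 64.8 after siRNA against 58.0 in the control in nuclear RNA, and 128 after siRNA against 125 in the control in cytosolic RNA. Its log2 ratios were 0.00366, 0.16 and 0.03. In the deposited values the serine synthesis genes thus differed by less than 0.2 log2 units in every preparation, and ASNS by less than 0.3. Under the 3 other scalings the whole-cell ratio of PHGDH lay between -0.31 and -0.24.

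The sign of the ratio did not run one way over the 10 genes. ATF3, TRIB3, SESN2 and PSAT1 (4 genes) were above 0 in all 3 preparations, against 24.6% of all loci and 29.9% of abundant protein-coding loci. ATF4, CHAC1 and ASNS (3 genes) were below 0 in all 3, against 13.2% and 11.9%. For DDIT3, DDIT4 and PHGDH the sign was mixed. The nuclear ratio of PHGDH, 0.00768, turned below 0 under all 3 other scalings, which put PHGDH below 0 in all 3 preparations. The sign of PSAT1 in whole-cell RNA, where its ratio was below 0.01, turned under the other scalings, and that of TRIB3 in nuclear RNA under 2 of them. By counting error alone 17 of the 30 ratios had an interval that excluded 0, and 26 had an interval wholly inside 1.5-fold. The 4 others were the whole-cell and nuclear ratios of ATF3 and the whole-cell and cytosolic ratios of CHAC1.

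Every one of the 10 mRNAs had a higher FPKM in cytosolic than in nuclear RNA in both conditions, which holds for 61.1% of all loci and 74.9% of abundant protein-coding loci. Which side of 0 a gene lies on depends on how the libraries are scaled, so positions are given against protein-coding loci. With a common protein-coding median, 2 of the 10 had the higher level in nuclear RNA in each condition, and with equal library totals 6 had. With quantile normalization 5 had it after HNRNPU siRNA and 3 in the control. The common protein-coding median moved the median of all loci to 0.05 after HNRNPU siRNA and 0.08 in the control, where the deposited values give -0.47 after HNRNPU siRNA and -0.44 in the control. The nuclear-to-cytosolic log2 ratio had a median of -0.65 over the 10 genes after HNRNPU siRNA and -0.90 in the control, and protein-coding loci had -0.61 in both. ATF4 lay at the cytosolic end, with 3.76 times as much cytosolic as nuclear FPKM after HNRNPU siRNA and 4.12 times as much in the control. That put it at percentile 4.73 after HNRNPU siRNA and 4.03 in the control among the nuclear-to-cytosolic ratios of protein-coding loci. TRIB3 was next, with 2.66 times as much in both conditions. DDIT3 followed with 2.2 times after HNRNPU siRNA and 2.36 times in the control, and then PSAT1 with 1.98 times after HNRNPU siRNA and 2.16 times in the control. At the other end, PHGDH came last after HNRNPU siRNA and DDIT4 last in the control: PHGDH had 1.33 times after siRNA and 1.36 times in the control, and DDIT4 1.47 times after siRNA and 1.30 times in the control. DDIT4 was thus at percentile 52.2 of protein-coding loci after siRNA and 59.5 in the control, near the middle. The order of the first 4 was the same in both conditions, while the other 6 changed places, with ASNS, SESN2, CHAC1 and ATF3 between 1.43 and 1.97 times.

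**Figure D3:**
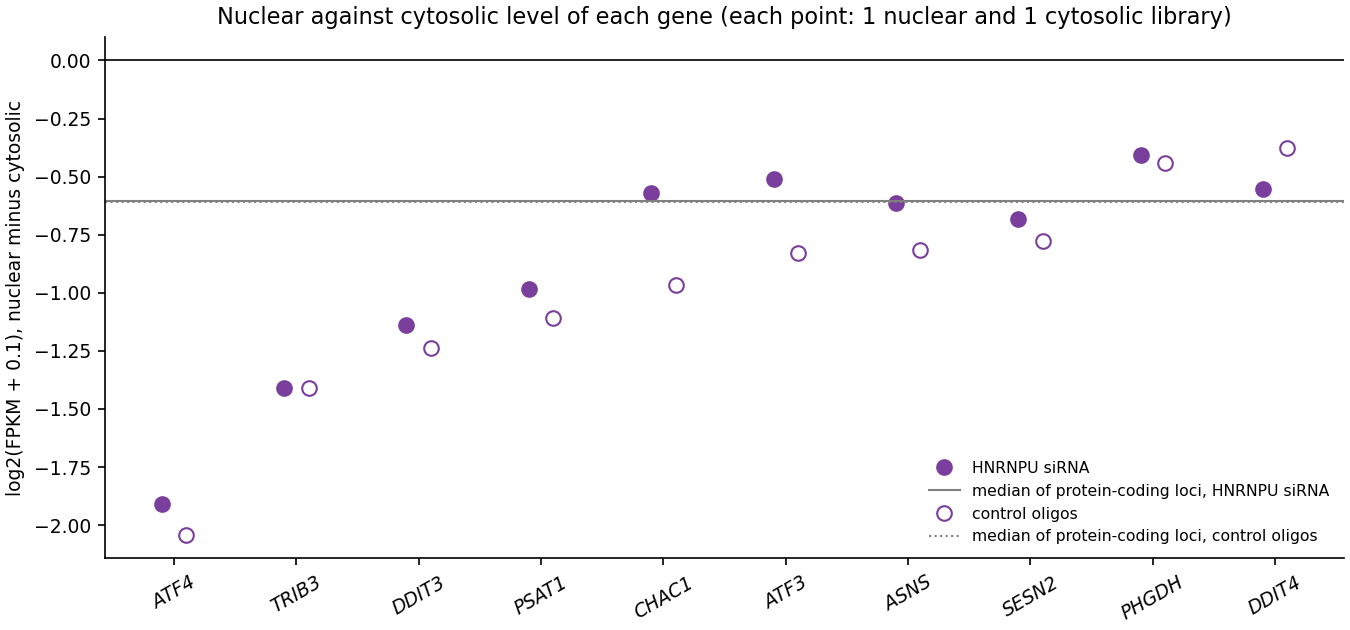
Nuclear-to-cytosolic log2 ratio (FPKM) of each gene after HNRNPU siRNA (filled) and with control oligos (open), ordered by the control value, with grey lines at the median of protein-coding loci. ATF4 lies lowest, at -1.91 after siRNA and -2.04 in the control, PHGDH and DDIT4 lie above the medians in both conditions, and 9 of the 10 filled points are above their open ones.

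The localization shift is the log2 nuclear-to-cytosolic ratio after HNRNPU siRNA minus that in the control, so a shift above 0 is toward the nucleus. None of the 10 genes had a shift of at least 1.5-fold: 0 of 10, against 7.58% of all loci shifted toward the nucleus and 9.19% toward the cytosol, and 2.51% and 2.96% of abundant protein-coding loci. The shift was small but above 0 in 9 of 10 genes, against 50.1% of all loci and 51.4% of abundant protein-coding loci, and its median was 0.11, against 0.000577 for all loci. It was highest for CHAC1 (0.40) and ATF3 (0.32), whose counting intervals included 0 (-0.07 to 0.86 and -0.03 to 0.66). ASNS had 0.21 (0.09 to 0.33), ATF4 0.13 (0.07 to 0.19) and PSAT1 0.13 (0.02 to 0.24), each with an interval that excluded 0. DDIT4 was the 1 gene with a shift below 0, at -0.18 (-0.25 to -0.11). SESN2, DDIT3, PHGDH and TRIB3 had shifts between 0.00129 and 0.10, with intervals that included 0. The count above 0 was 8 with libraries scaled to the protein-coding median or quantile normalized and 7 with equal totals, where TRIB3 and then PHGDH fell below 0. Median shifts of the further gene lists described below did not share a sign. They were 0.28 for eIF2 kinases, 0.12 for eIF2 and eIF2B, 0.19 for paralogs and 0.01 for serine and one-carbon enzymes. Other ATF4 target genes had -0.13, ATF4 partners and relatives -0.12, the eIF2 phosphatase -0.11 and amino acid transporters -0.08. The IRE1 and ATF6 list had -0.01, and mTORC1 and its inhibitors -0.02.

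Loci of the rest of the pathway passed the size rule about as seldom as abundant protein-coding loci did. Some loci of these lists averaged less than 5 FPKM, so abundant loci are not a matched background. Over 106 loci of 10 further gene lists, 1 was higher and 1 lower by at least 1.5-fold in whole-cell RNA after HNRNPU siRNA, against 4.76% and 3.87% of all loci and 1.85% and 0.902% of abundant protein-coding loci. In nuclear RNA 1 was higher and 2 were lower, against 3.85% and 4.73% of all loci and 1.53% and 1.23% of abundant ones. In cytosolic RNA 3 were higher and 1 was lower, against 6.4% and 5.9% of all loci and 1.63% and 1.29% of abundant ones. These few are named with their lists, some of them chosen after their values were seen. No locus passed 1.5-fold in the same direction in 2 or more preparations: 0 were higher and 0 lower, against 2.16% and 2.29% of all loci and 0.426% and 0.276% of abundant ones. BATF3, lower past 1.5-fold in whole-cell RNA (-0.91), came just short of it in cytosolic RNA, at -0.581 against a rule of 0.585. The lists were not run under other pseudocounts or scalings. Among 106 loci, 0 is close to the shares of abundant loci. Their median log2 ratios were 0.05, 0.03 and -0.00398 in whole-cell, nuclear and cytosolic RNA.

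Upstream of ATF4, the 4 eIF2 kinases had median ratios (always in the order whole-cell, nuclear, cytosolic) of 0.22, 0.26 and -0.02, and 0 of 4 passed 1.5-fold. EIF2AK2, the kinase PKR that senses double-stranded RNA, had 12.5 whole-cell FPKM after HNRNPU siRNA and 9.86 in the control, and log2 ratios of 0.34, 0.53 and 0.12. EIF2AK1, which senses heme, had 36.3 whole-cell FPKM after HNRNPU siRNA and 31.4 in the control, and log2 ratios of 0.21, 0.27 and 0.03. The 8 subunit genes of eIF2 and its exchange factor eIF2B had medians of 0.05, 0.09 and -0.03, with 0 past 1.5-fold. EIF2B1 had 0.15, 0.21 and 0.13, and EIF2B2 0.46, 0.06 and -0.17. The 5 genes of the eIF2 phosphatase had medians of 0.11, -0.01 and 0.08, also with 0 past 1.5-fold. PPP1R15A, the inducible subunit GADD34 that directs the phosphatase to eIF2, had 55.2 whole-cell FPKM after HNRNPU siRNA and 47.7 in the control, and log2 ratios of 0.21, 0.14 and 0.25. The catalytic subunit gene PPP1CC had 0.11, 0.20 and -0.000629.

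Of 14 dimer partners and relatives of ATF4, 1 was at least 1.5-fold higher in whole-cell RNA (JDP2) and 1 lower (BATF3). BATF3, a leucine zipper factor known from dendritic cells, had 2.12 whole-cell FPKM after HNRNPU siRNA and 4.06 in the control. It was below its control in all 3 preparations, with log2 ratios of -0.91, -0.51 and -0.58. JUN, a partner of ATF3, had 0.08, 0.04 and 0.58. Medians of the list were 0.05, -0.17 and -0.06.

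The 8 serine and one-carbon enzymes, which are not all known targets of ATF4, had medians of 0.21, 0.06 and -0.06, with 0 past 1.5-fold. MTHFD1, a folate enzyme, had 19.9 whole-cell FPKM after HNRNPU siRNA and 14.9 in the control, and log2 ratios of 0.41, 0.28 and 0.49. SHMT2, which makes glycine from serine in mitochondria, had 0.25, 0.14 and 0.19. The 10 amino acid transporter genes had medians of -0.00239, 0.05 and 0.10, with 0 past 1.5-fold. SLC1A4, a neutral amino acid transporter, had -0.03, -0.18 and -0.42, and SLC38A2, another, 0.21, 0.15 and 0.11. Of 21 other target genes, 1 was at least 1.5-fold higher in whole-cell RNA (JDP2 again), 1 lower in nuclear RNA (ADM2, -0.72) and 1 higher in cytosolic RNA (STC2, 0.85), and the medians were 0.03, -0.09 and -0.01. FAM129A, also called NIBAN1, had -0.22, -0.09 and -0.48.

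The other arms of the unfolded protein response, IRE1 and ATF6 with their targets, had medians of 0.07, 0.04 and 0.07 over 18 loci, with 0 past 1.5-fold in any preparation. HSPA5, the chaperone BiP that rises with stress of the endoplasmic reticulum, had 81.8 whole-cell FPKM after HNRNPU siRNA and 84.0 in the control; it was chosen for its role after its values were seen. DNAJC3, a cochaperone of BiP, had log2 ratios of 0.26, 0.32 and 0.23, and ATF6 0.18, 0.41 and 0.20. Over 16 loci of mTORC1 and its inhibitors the medians were 0.12, -0.00198 and -0.06, with DEPDC5 lower past 1.5-fold in nuclear RNA and, in cytosolic RNA, TSC1 higher (0.76) and SESN1 lower. SESN1, a paralog of SESN2, had 1.29 whole-cell FPKM after HNRNPU siRNA and 1.82 in the control and was below its control in all 3 preparations, with log2 ratios of -0.46, -0.50 and -0.62. DEPDC5, a GATOR1 subunit whose locus also carries RNU6-201P, had 0.47, -1.002 and -0.14. Among 8 paralogs of the 10 genes, which include JDP2 and SESN1, the medians were -0.07, -0.04 and -0.33. CHAC2, a paralog of CHAC1, was the 1 locus higher past 1.5-fold in nuclear RNA (0.66), and TRIB1, a relative of TRIB3, had -0.11, 0.30 and 0.80 at 1.57 to 3.56 FPKM.

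The lists differed in their nuclear-to-cytosolic ratios. Which parts of the cell each preparation held was not tested, so a ratio above 0 does not place an mRNA inside the nucleus. All 10 amino acid transporters had a higher FPKM in nuclear than in cytosolic RNA in both conditions, against 29% of all loci and 18.3% of abundant protein-coding loci. Their median nuclear-to-cytosolic log2 ratio was 0.53 after HNRNPU siRNA and 0.55 in the control, and the lowest value was 0.06 after siRNA and 0.14 in the control. The highest value among the 10 ATF4 stress-response genes was -0.41 after siRNA and -0.38 in the control, so these sets do not overlap, and a factor applied to a whole library would move both alike. Quantile normalization is not such a factor. With it the highest of the 10 genes had 0.53 after siRNA and 0.68 in the control, and the transporters were not recomputed. The IRE1 and ATF6 list, mostly proteins made at the endoplasmic reticulum, had a median of 0.45 after siRNA and 0.42 in the control, and the serine and one-carbon enzymes -1.05 after siRNA and -1.09 in the control. SLC3A2, the heavy chain of amino acid exchangers, had nuclear-to-cytosolic log2 ratios of 0.71 after siRNA and 0.84 in the control, while MTHFD2, a mitochondrial folate enzyme of the same response, had -1.85 after siRNA and -2.14 in the control. Both were chosen after their values were seen.

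**Figure D4:**
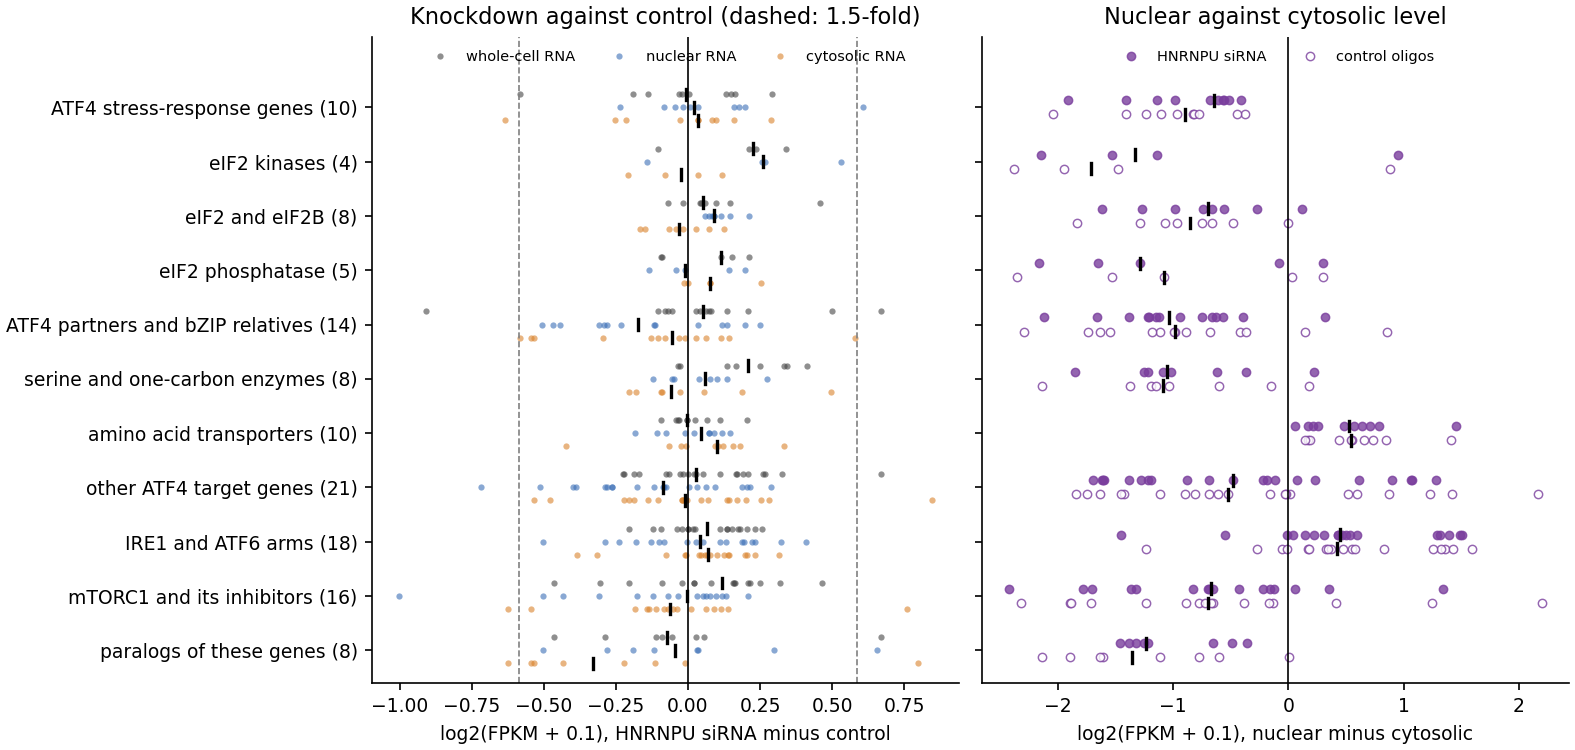
Each point is a gene of the list named at the left, with the number of loci in brackets and black ticks at the medians. The left panel gives the log2 ratio of HNRNPU siRNA to control in the 3 preparations (dashed lines at 1.5-fold), where all medians lie between -0.33 and 0.26. The right panel gives nuclear-to-cytosolic log2 ratios in each condition, where the amino acid transporters lie above 0 and the ATF4 stress-response genes below 0.

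Across the 6 libraries the loci with the pattern most like ATF4 were RASA3 (Pearson's r 0.9998), CAV2 (0.9997) and MAD2L2 (0.9996), on the log2(FPKM + 0.1) scale and out of 7983 abundant protein-coding loci. Such likeness is common here, since 570 of these loci had an r of at least 0.99. Of the other stress-response genes, TRIB3 had the highest r with ATF4 (0.968), DDIT3 had 0.949, and PHGDH the lowest (0.733). These values describe 6 libraries and are given without a test.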

How the data were processed

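The authors deposited FPKM values of 62828 loci in 6 columns. No header gives the unit, which was inferred from the values and from Cuffdiff 2.2.1, listed with TopHat2 2.0.13 per the submitters' processing notes. Coordinates are those of hg19, listed there too. How libraries were scaled, which annotation was used and whether strand counted are not given. The 12824 loci averaging 1 FPKM or more were analysed, leaving out 14 on chromosome Y or at XIST. Gene types and transcript lengths came from GENCODE release 29, by symbol.

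Log2 ratios use a pseudocount of 0.1 FPKM and understate the change of low loci. What 1 fragment is worth was estimated from the steps between low values of 3385 loci with 1 exon, each shortened by 240 bases. Fragments per gene follow from it and the mean transcript length. They give 95% intervals that cover counting error only. With 1 library per group no test was run. The genes and lists were chosen with earlier results of these data known. Per list, the text names the 2 loci with the widest mean ratio, and others as stated. Alternatives were other pseudocounts, scalings and filters. Calculations used Python 3.11.15, numpy 2.4.6 and pandas 2.3.3, and were tested on simulated libraries.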

Additional observations from a re-analysis of the deposited data

How the results depend on the processing

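Across 7 other settings, all 10 genes stayed in the analysis, and 275 of 280 values of single genes moved by less than their counting interval. The 5 that moved further were whole-cell ratios of ATF4, DDIT4 and PSAT1 under other scalings. Settings that changed only the filter on mean FPKM could not move a value of these 10 genes, so they add no check. Of 40 ratios and shifts, 5 took the other sign in at least 1 setting; none of them had reached 1.5-fold. The counts past 1.5-fold rest on genes close to that size. The count higher in nuclear RNA was 1 and became 0 with a pseudocount of 1 and with scaling to the protein-coding median, where ATF3 had 0.57 in both. The count lower in cytosolic RNA became 0 with a pseudocount of 1, where CHAC1 had -0.57. The count lower in whole-cell RNA was 0 and became 1 (CHAC1) with a pseudocount of 0.01, with scaling to the protein-coding median, with equal totals and with quantile normalization. The median shift was 0.08 to 0.11 in all 7. This shift and the median ratios moved by less than the counting intervals of the genes reach, on average, to either side. No fit of condition with preparation as a block was run, because the sources used here do not say whether the preparations of a condition share a culture. Depth limits CHAC1 and ATF3, at roughly 69.2 to 565 fragments per library.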
